A study of Mus musculus with 17 samples.

Results

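Histones are the proteins around which DNA is wound, and the genes described here are those that encode them in mouse β cells with and without the RNA-binding protein PCBP2. The members were found by gene symbol: the linker histone genes named *H1f*, the core histone genes named *H2ac*, *H2bc*, *H3c* and *H4c*, and the variant genes named *H2az* and *H3f*, each followed by a number, together with *H2ax* and *H4f16*, leaving out symbols that mark a pseudogene. The rule matched 79 of the 55357 genes in the transcript tables, of which 78 carried histone gene symbols and 1, *H3f3aos*, was an antisense transcript of *H3f3a* that is counted apart. Among the 78, *H2ac14* and *H3f3c* are annotated as pseudogenes and are kept in the counts below. Replication-dependent core genes made up 59 members (18 *H2ac*, 17 *H2bc*, 12 *H3c* and 12 *H4c*), and 5 more (*H1f1* to *H1f5*) were replication-dependent linker genes. Another 13 were replacement or germ cell histones (7 core and 6 linker genes), and *H4f16*, an H4 gene whose name sets it apart, was kept on its own.

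As background, replication-dependent histone genes sit in clusters, lack introns as a rule, and are switched on in S phase to package newly made DNA. Their usual mRNA ends just past a stem-loop that binds the protein SLBP and carries no polyA tail, so libraries made from polyA RNA take it up poorly. Replacement histones such as H2A.Z, H3.3 and H1.0 are made from genes with ordinary polyadenylated mRNA throughout the cell cycle, *H2ax* can end its mRNA either way, and most adult β cells are not dividing.

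RNA was sequenced from β cells of male mice on the C57BL/6 background, sorted as single cells carrying the tdTomato reporter and not stained by DAPI, after islets had been held for 72 h in 2.8 mM (low) or 16.7 mM (high) glucose. *Pcbp2* βKO mice carried RIP-Cre, in which the rat insulin promoter drives Cre in β cells, *Pcbp2* flanked by loxP sites on both alleles, and the Rosa26 tdTomato reporter. The control mice are labelled WT in the sample labels, which elsewhere call them Tdtomato mice, while the methods of the study describe RIP-Cre crossed to the tdTomato reporter, so that the controls carried Cre and the reporter as well; ages for this experiment were not given in the sources used here. There were 3 control samples in low glucose, 4 control samples in high glucose, 5 *Pcbp2* βKO samples in low glucose and 5 in high glucose, 17 in all. The total of estimated counts ran from 47385513 to 82419400 per sample. Levels below are CPM, counts scaled to library size and by trimmed mean of M values (TMM), and TPM wherever levels of different genes are set side by side. What a replicate number stands for was not given, and p-values then measure only the spread between these samples, which may be technical.

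*Pcbp2* itself stood at 63.4, 73.4 and 50.7 CPM in the control samples in low glucose and at 35.0, 45.4, 44.4 and 36.7 CPM in those in high glucose. In *Pcbp2* βKO β cells it stood at 19.2, 17.5, 16.8, 15.5 and 18.2 CPM in low glucose and at 10, 5.81, 6.39, 8.48 and 7.61 CPM in high glucose. Every *Pcbp2* βKO sample lay below every control sample at the same glucose level. The difference was −1.84 on the log2 scale in low glucose (SE 0.17, edgeR quasi-likelihood test with Benjamini-Hochberg adjustment, adjusted p = 3.61e-06; exact permutation test, two-sided, p = 0.0357) and −2.40 in high glucose (SE 0.16, edgeR adjusted p = 7.55e-08; exact permutation p = 0.0159), these permutation p-values being the smallest the designs allow. *Pcbp2* was also lower in high than in low glucose, by −0.63 in control cells (SE 0.18, edgeR adjusted p = 0.0208) and by −1.19 in *Pcbp2* βKO cells (SE 0.15, edgeR adjusted p = 2.26e-05).

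Of the 79 matches, 59 passed the filter on low counts and were tested. The filter keeps a gene with about 10 counts in as many samples as the smallest group holds, so a member could pass through the group in which it was high, and counts and medians over the tested members describe those genes and not the whole family. The 20 that did not pass were *H1f1*, *H1f6*, *H1f7*, *H1f8*, *H1f9*, *H2ac1*, *H2ac10*, *H2ac12*, *H2ac14*, *H2ac19*, *H2ac21*, *H2ac22*, *H2bc1*, *H2bc7*, *H2bc13*, *H3c3*, *H3c10*, *H3c13*, *H3f3c* and *H3f4*. Among them *H2ac1* and *H2bc1* had no counts in any sample, and *H2ac14* and *H3f3c* are annotated as pseudogenes in the files. All 12 *H4c* genes passed, as did 11 *H2ac*, 14 *H2bc*, 9 *H3c*, 4 of the 5 replication-dependent linker genes and 7 of the 13 replacement or germ cell histones. A mean of at least 1 CPM was reached by 32 members.

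Expression was concentrated in few genes. By mean TPM over the 17 samples, which takes transcript length into account, the replacement gene *H2az1* came first with 329 TPM, *H2ac18* followed with 247, and *H3f3b*, 1 of a pair of genes for the same H3.3 protein, with 176. Next came *H2bc4* with 138 TPM, *H3f3a*, the other H3.3 gene, with 137, *H1f2* with 109 and *H1f0* with 96.4. The 10 most abundant members held 90.3% of the summed histone TPM and the first 3 held 50.9%. The order of neighbours was not fixed across samples: *H2az1* ranged from 153 to 538 TPM and *H2ac18* from 121 to 532 TPM, and the pair differed between groups. In control low-glucose samples *H2az1* was at 450.3, 499.7 and 405 TPM and *H2ac18* at 211, 136 and 121 TPM, while in *Pcbp2* βKO high-glucose samples neither was the higher throughout. *H2ac18* has no 31-base stretch of its own (below), and its level depends on how the counting shared reads among near-identical models.

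Before the comparisons, 2 libraries have to be named. Both *Pcbp2* βKO samples numbered 5, 1 in low and 1 in high glucose, stood apart in H4 genes. The low-glucose sample also stood apart in several H1, H2A, H2B and H3 genes (closing sections), its summed H3 level being 24.6 CPM against at most 7.24 CPM. *H4c3* was at 3.69, 2.82, 2.23 and 4.08 CPM in the other *Pcbp2* βKO samples in low glucose and at 69.3 CPM in sample 5, and *H4c8* was at 7.85, 9.65, 10.1 and 7.10 CPM in high glucose and at 48.6 CPM in sample 5. The summed level of the H4 genes was 172 CPM in low-glucose sample 5 against at most 42.8 CPM in the other 4, and 226 CPM in high-glucose sample 5 against at most 91.3 CPM. Results are therefore given with and without both samples, a comparison chosen after seeing the data, in which 54 members passed the filter.

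High glucose raised a set of replication-dependent histone genes in control β cells. A gene is said to be called here when the edgeR quasi-likelihood test gave a Benjamini-Hochberg adjusted p below 0.05 together with a change of more than 1.5-fold. By this rule 13 of the 59 tested members were higher and 0 were lower, against 7.15% of the 22784 genes tested that were called higher and 6.69% called lower. The count of members at an unadjusted p under 0.05 was 26, in either direction, against 6672 of all genes tested, and DESeq2 called 18 higher and 1, the antisense *H3f3aos*, lower. The 13 were *H1f2*, *H1f3*, *H1f4*, *H2ac6*, *H2ac7*, *H2ac13*, *H2ac24*, *H2bc4*, *H2bc6*, *H2bc8*, *H2bc9*, *H3c4* and *H3c15*. The median log2 fold change of the tested members was 1.08, against 0.04 over all genes tested; *H2ac15*, at 0 in each control low-glucose sample, enters this median the same at its lower bound of 2.69. Over the 32 members with a mean of at least 1 CPM the median was 1.06, against −0.03 over the 13079 genes at that level, and 11 of the 32 were called higher. Same-numbered control samples deviated together (processing section), and with the replicate number as a block 22 members were called in place of 13. The count was 8 without low-glucose control sample 2 and 21 without the *Pcbp2* βKO samples numbered 5, which belong to neither group compared but enter the shared fit, the filter and the adjustment. It split into 3 higher and 5 lower on the log2(TPM + 1) scale and into 8 higher and 2 lower with total counts alone.

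In *Pcbp2* βKO β cells, 20 of the 59 tested members were called higher in high glucose and 0 lower, against 13.4% of all genes tested called higher and 10.4% called lower. At an unadjusted p under 0.05 there were 27, against 9046 of all genes tested, and DESeq2 called 22 higher and 0 lower. All 13 genes called in control cells were among these 20, and the other 7 were *H2ac23*, *H2bc23*, *H2bc24*, *H3c8*, *H4c9*, *H4c17* and *H4c18*. The median log2 fold change was 0.91, against 0.01 over all genes tested (1.63 without low-glucose sample 5 and 1.54 without both samples numbered 5), and over the members with a mean of at least 1 CPM it was 0.97, against −0.01, with 16 of 32 called. With the replicate number as a block 26 were called, 25 higher and 1, *H4c1*, lower. Leaving out low-glucose *Pcbp2* βKO sample 5 alone raised the count to 31, and leaving out both samples numbered 5 gave 29, adding *H2ac15*, *H2bc11*, *H2bc14*, *H2bc22*, *H3c6*, *H3c11*, *H4c3*, *H4c11* and *H4f16*. All 20 genes called in either genotype belonged to the replication-dependent classes, of which 50 members were tested with medians of 1.35 in control and 1.24 in *Pcbp2* βKO cells. The 7 tested replacement genes had medians of 0.29 and 0.12, and 0 were called in either genotype by edgeR with TMM or by DESeq2; at an unadjusted p under 0.05 there were 4 in control and 1 in *Pcbp2* βKO cells, and under other scalings several were called lower (below).

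The linker genes *H1f2*, *H1f3* and *H1f4*, whose products bind the DNA entering and leaving the nucleosome, rose in both genotypes. *H1f4* stood at 3.01, 1.57 and 2.25 CPM in control low-glucose samples and at 19.5, 17.1, 14.9 and 8.67 CPM in control high-glucose samples. With *Pcbp2* deleted, the values were 3.12, 2.99, 3.16, 3.83 and 7.18 CPM in low and 19.9, 33.2, 19.5, 13.1 and 32.4 CPM in high glucose. Neither pair of groups overlapped, and the highest low-glucose value was that of *Pcbp2* βKO sample 5. The log2 fold change was 2.72 in control cells (SE 0.40, edgeR adjusted p = 0.000618) and 2.54 in *Pcbp2* βKO cells (SE 0.32, edgeR adjusted p = 2.12e-05). *H1f3* had 3.29, 1.25 and 4.88 CPM in control low-glucose samples against 16.9, 17.9, 29.3 and 13.3 CPM in control high-glucose samples. *Pcbp2* βKO samples had 5.43, 4.42, 5.16, 5.98 and 6.22 CPM of it in low and 28.2, 37.5, 19.8, 16.8 and 26.7 CPM in high glucose, again with no overlap. Its log2 fold changes were 2.62 (SE 0.39, edgeR adjusted p = 0.000618) and 2.24 (SE 0.30, edgeR adjusted p = 4.08e-05). These calls on *H1f3* and *H1f4* held in both genotypes under each of the 14 other settings and with each of the 17 samples left out in turn.

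*H1f2* was the most abundant of the replication-dependent linker genes. It measured 199, 137 and 128 CPM in control low-glucose samples and 374, 264, 221 and 218 CPM in control high-glucose samples. Among *Pcbp2* βKO samples it measured 156, 121, 163, 185 and 117 CPM in low and 322, 305, 221, 283 and 372 CPM in high glucose. Groups did not overlap in either genotype, but control sample 1 was the highest at both glucose levels. The log2 fold change was 0.80 in control cells (SE 0.23, edgeR adjusted p = 0.0232) and 1.02 in *Pcbp2* βKO cells (SE 0.19, edgeR adjusted p = 0.000528), turning to −0.01 in both on the TPM scale. In control cells the call was lost without low-glucose sample 2 or 3 or high-glucose sample 1 and with only the 2 groups fitted, and with total counts alone it was lost in both genotypes. *H1f5* was detected at a mean of 0.117 CPM, and its log2 fold changes of 0.75 and 2.44 did not pass (edgeR adjusted p = 0.725 and 0.0628), the former turning to −0.03 on the log2(TPM + 1) scale. In *Pcbp2* βKO cells it was called by DESeq2 and with 3 samples left out.

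Among H2B genes, *H2bc4* carried most of the reads. It stood at 113, 88.8 and 108 CPM in control low-glucose samples and at 196, 242, 216 and 163 CPM in control high-glucose samples. In *Pcbp2* βKO cells it stood at 182, 130, 138, 149 and 157 CPM in low and at 283, 288, 237, 214 and 395 CPM in high glucose. The groups were separate in both genotypes, with the highest value in high-glucose *Pcbp2* βKO sample 5. The log2 fold change was 0.98 in control (SE 0.19, edgeR adjusted p = 0.00327) and 0.91 in *Pcbp2* βKO cells (SE 0.16, edgeR adjusted p = 0.000347), which fell to 0.16 and −0.15 on the TPM scale. Both calls were lost with total counts alone and on both TPM scales. *H2bc6* rose from 3.12, 1.43 and 5.07 CPM to 13.7, 18.8, 17.3 and 11.6 CPM in control cells, a log2 fold change of 2.26 (SE 0.47, edgeR adjusted p = 0.00453). With *Pcbp2* deleted, it went from 4.29, 5.00, 5.12, 4.49 and 13.3 CPM to 21.5, 33.4, 16.3, 13.4 and 34.4 CPM, a log2 fold change of 1.88 (SE 0.37, edgeR adjusted p = 0.000947). Sample 5 in low glucose came within reach of the lowest high-glucose sample. A spliced model annotated as non-coding, *H2bc6-203*, held 82.3% of the *H2bc6* counts, and with protein-coding transcripts alone *H2bc6* was no longer called in either genotype.

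*H2bc8* measured 4.07, 2.45 and 3.47 CPM in control low-glucose and 9.92, 7.11, 9.12 and 6.04 CPM in control high-glucose samples, with a log2 fold change of 1.27 (SE 0.28, edgeR adjusted p = 0.00600). Among *Pcbp2* βKO samples it measured 3.46, 2.29, 4.18, 4.01 and 2.99 CPM in low and 12.2, 12.1, 12.3, 6.46 and 11.6 CPM in high glucose, with a log2 fold change of 1.69 (SE 0.23, edgeR adjusted p = 4.14e-05). On the TPM scales the *H2bc8* call was lost in control cells (0.38, with an adjusted p of up to 0.238) and, on log2(TPM + 1), in *Pcbp2* βKO cells. *H2bc8* was not raised in low-glucose *Pcbp2* βKO sample 5, unlike *H2bc6*. *H2bc9*, at 0.637, 0.567 and 0.405 CPM in control low-glucose samples and 3.70, 2.94, 3.01 and 1.61 CPM in control high-glucose samples, rose 5.24-fold in control and 4.47-fold in *Pcbp2* βKO cells (edgeR adjusted p = 0.000882 and 4.94e-05), with both calls lost on the log2(TPM + 1) scale. *H2bc23* and *H2bc24* were called in *Pcbp2* βKO cells (log2 fold change 1.27, SE 0.45, and 1.84, SE 0.64), with values of 1.03 and 1.49 in control cells that did not pass. Of 13 other settings *H2bc23* lost its glucose call in 5 and of 14 *H2bc24* lost it in 5, and the calls were lost without any one of 8 and 7 samples respectively. These 2 genes share nearly all of their sequence, and models marked for nonsense-mediated decay held 99.4% and 78% of their counts. *H2bc24* turned to −0.34 in *Pcbp2* βKO cells when protein-coding transcripts alone were summed, and the low counts are divided between the pair in a way that the counts cannot check.

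Among H2A genes that were called, *H2ac24* had the highest mean TPM. It measured 4.66, 3.22 and 3.23 CPM in control low-glucose samples and 29.8, 10.7, 5.90 and 5.69 CPM in control high-glucose samples. *Pcbp2* βKO samples had 3.52, 2.42, 3.11, 7.04 and 4.76 CPM in low and 54.5, 24.6, 60.4, 16.2 and 21.2 CPM in high glucose. In CPM every high-glucose sample lay above every low-glucose sample of its genotype, control high-glucose sample 1 lying far above the other 3. In TPM the glucose levels overlapped in control cells. The log2 fold change was 1.81 in control cells (SE 0.57, edgeR adjusted p = 0.0390) and 3.09 in *Pcbp2* βKO cells (SE 0.48, edgeR adjusted p = 0.000140). In control cells the call was lost without any one of the low-glucose samples and without high-glucose sample 1 or 2. It was also lost there with total counts alone, on both TPM scales and with only the 2 groups fitted. Over all settings the control value fell to as little as 0.58 and the adjusted p reached 0.361. In *Pcbp2* βKO cells the call held under each setting and each sample left out. The difference between the responses, 1.28 (SE 0.70), did not pass (edgeR interaction test, adjusted p = 1).

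*H2ac6* rose from 1.47, 1.15 and 1.84 CPM to 3.84, 4.76, 4.77 and 3.87 CPM in control cells (log2 fold change 1.54, SE 0.48, edgeR adjusted p = 0.0371). This control call was lost without any one of the control samples other than high-glucose sample 4, with total counts alone and on both TPM scales, where the value fell to as little as 0.33 and the adjusted p reached 0.325 over all settings. In *Pcbp2* βKO cells *H2ac6* rose from 1.44, 0.962, 1.95, 1.53 and 4.99 CPM to 8.69, 8.96, 5.76, 4.14 and 14.3 CPM (log2 fold change 1.94, SE 0.39, edgeR adjusted p = 0.00110), sample 5 being the highest at both glucose levels. There the call was lost on the log2(TPM + 1) scale, the value falling to as little as 0.54. *H2ac7* and *H2ac13*, both under 1 CPM on average, were 3.87-fold and 5.05-fold higher in control and 4.83-fold and 7.68-fold higher in *Pcbp2* βKO cells. Both control calls were lost on the log2(TPM + 1) scale, and that of *H2ac13* also without control low-glucose sample 1 or 2 (adjusted p of up to 0.0862). *H2ac23* was called in *Pcbp2* βKO cells (log2 fold change 3.91, SE 0.66, edgeR adjusted p = 0.000255) and reached 2.03 (SE 0.78, edgeR adjusted p = 0.0851) in control cells. *H2ac18*, the H2A gene with the highest TPM, was at 78.9, 55.1 and 41.4 CPM in control low-glucose samples and 196, 113, 81.2 and 65.8 CPM in control high-glucose samples, which overlapped. Its log2 fold change was 0.96 in control cells (SE 0.37, edgeR adjusted p = 0.0851) and 0.16 in *Pcbp2* βKO cells (SE 0.30, edgeR adjusted p = 0.743), neither of them called. In control cells it was called higher by DESeq2, with the replicate number as a block, without both samples numbered 5 and with 3 samples left out, while in *Pcbp2* βKO cells it turned to −0.87 and was called lower on the log2(TPM + 1) scale. *H2ac8*, next to *H2ac24* by TPM, had log2 fold changes of 0.09 and 0.54, which turned to −0.46 and −0.32 on that scale.

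H3 genes were weakly expressed, and *H3c4* and *H3c15* were called in both genotypes. It stood at 0.833, 0.529 and 0.525 CPM in control low-glucose samples and at 2.23, 2.24, 2.67 and 2.19 CPM in control high-glucose samples. With *Pcbp2* deleted, it stood at 1.2, 1.29, 1.40, 1.30 and 1.58 CPM in low and at 4.02, 4.19, 3.05, 2.89 and 5.56 CPM in high glucose. In CPM the glucose levels did not overlap within either genotype; in TPM they overlapped in *Pcbp2* βKO cells. The log2 fold change with glucose was 1.89 in control cells (SE 0.28, edgeR adjusted p = 0.000631) and 1.54 in *Pcbp2* βKO cells (SE 0.22, edgeR adjusted p = 6.33e-05). On the log2(TPM + 1) scale both calls were lost, the values falling to 0.50 and 0.30, and with a pseudocount of 0.1 TPM that of *Pcbp2* βKO cells was lost as well. *H3c15* rose 3.62-fold in control and 5.29-fold in *Pcbp2* βKO cells (edgeR adjusted p = 0.0381 and 0.00100). Its control call was lost without control low-glucose sample 2 or 3 or high-glucose sample 1 or 3, with total counts alone, on both TPM scales and with only the 2 groups fitted, the log2 value falling to as little as 0.41. *H3c8* was called in *Pcbp2* βKO cells alone (log2 fold change 2.48, SE 0.78, edgeR adjusted p = 0.0218) at a mean of 0.150 CPM, with 0.34 (SE 1.05) in control cells that turned to −0.04 on the log2(TPM + 1) scale. Its call was lost on that scale, with 3 samples left out, and without *Pcbp2* βKO low-glucose sample 2 or high-glucose sample 5 (adjusted p of up to 0.0964). *H3c6* and *H3c11*, the other H3 genes with the highest TPM, had log2 fold changes of 1.09 and 1.95 in control and 0.42 and 1.21 in *Pcbp2* βKO cells and did not pass, the 0.42 of *H3c6* turning to −0.33 on that scale. Without both samples numbered 5 they were called in *Pcbp2* βKO cells (1.05 and 2.79, edgeR adjusted p = 0.0276 and 0.00177). In control cells *H3c11* was then called as well (1.95, edgeR adjusted p = 0.0375), while *H3c6* was not (edgeR adjusted p = 0.0518).

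For H4 genes the result depended on the libraries numbered 5. In control cells 0 of the 12 *H4c* genes were called by edgeR, with 5 at an unadjusted p under 0.05, and DESeq2 called *H4c3*, *H4c11* and *H4c18*. With the replicate number as a block, which took the count of members from 13 to 22, edgeR called 6 of them (*H4c3*, *H4c8*, *H4c9*, *H4c11*, *H4c17* and *H4c18*), and without both samples numbered 5 it called the same genes except *H4c8*. *H4c3* measured 1.83, 1.38 and 3.74 CPM in control low-glucose samples and 10.3, 15.8, 19.3 and 11.1 CPM in control high-glucose samples, with no overlap. Among *Pcbp2* βKO samples it measured 3.69, 2.82, 2.23, 4.08 and 69.3 CPM in low and 24, 31, 18.9, 15.0 and 65.9 CPM in high glucose, so that sample 5 in low glucose was above every other sample of the study. With all samples the log2 fold change of *H4c3* was 2.61 in control cells (SE 1.03, edgeR adjusted p = 0.0952) and 0.91 in *Pcbp2* βKO cells (SE 0.77, edgeR adjusted p = 0.420). Without both samples numbered 5 it was 2.61 (edgeR adjusted p = 0.000456) and 2.80 (edgeR adjusted p = 3.7e-05). *H4c9*, *H4c17* and *H4c18* passed in *Pcbp2* βKO cells with all samples (log2 fold changes 0.79, 1.66 and 1.44, edgeR adjusted p = 0.0417, 0.0430 and 0.0388). Each of these calls was lost without high-glucose sample 5 and without low-glucose sample 1, 2, 3 or 4 taken singly. They were also lost with total counts alone, on both TPM scales, with only the 2 groups fitted and with 3 samples left out. *H4c17* fell to as little as 0.59 and *H4c18* to 0.47, and *H4c9* turned to −0.27 on the log2(TPM + 1) scale.

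**Figure D1:**
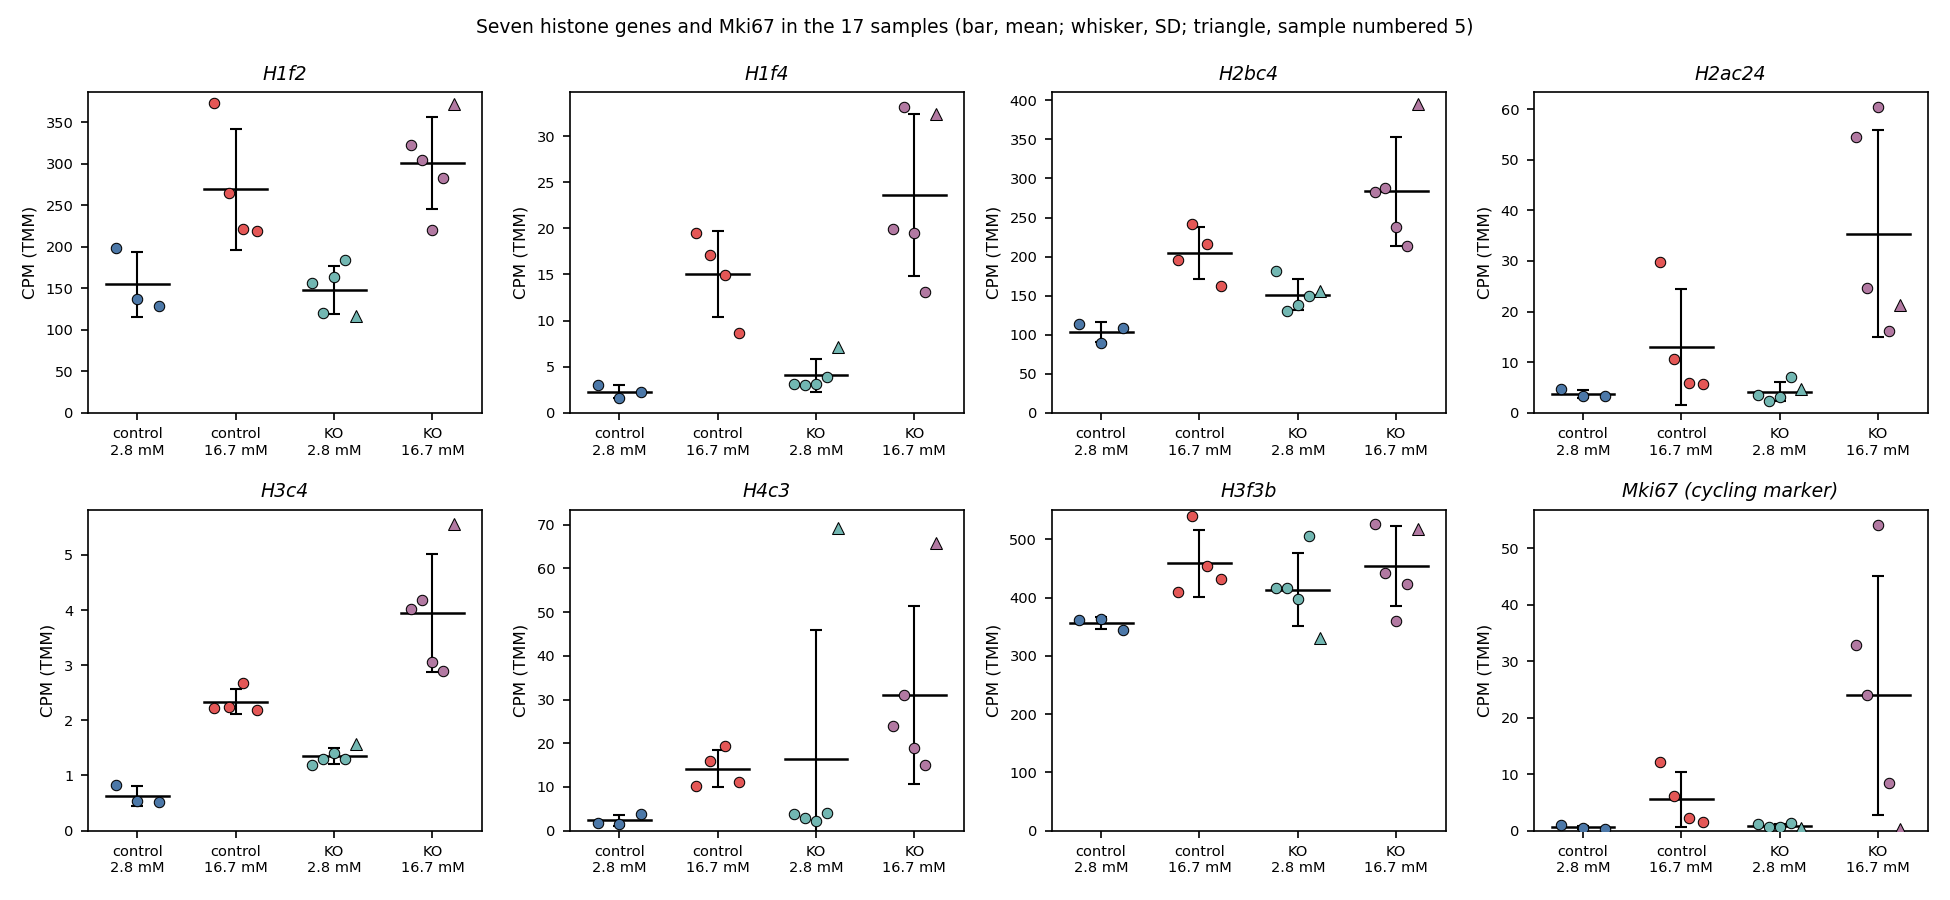
CPM of 7 histone genes and the cycling marker *Mki67* in each of the 17 samples (y axis, TMM-scaled CPM; x axis, the 4 groups; bar, mean; whisker, SD; triangles, samples numbered 5). *H1f4*, *H2bc4* and *H3c4* were separate between glucose levels in each genotype, *H4c3* was highest in the *Pcbp2* βKO samples numbered 5, and *H3f3b* overlapped between glucose levels in *Pcbp2* βKO cells; on the TPM scale the *H1f2* difference in both genotypes, that of *H2bc4* in *Pcbp2* βKO cells and that of *H3f3b* changed sign.

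None of the 7 tested replacement histone genes was called under TMM scaling, and no test compared the classes. *H3f3b* stood at 362, 363 and 344 CPM in control low-glucose samples and at 409, 540, 454 and 432 CPM in control high-glucose samples. In *Pcbp2* βKO cells it stood at 417, 417, 398, 506 and 331 CPM in low and at 526, 443, 360, 424 and 517 CPM in high glucose, where the groups overlapped. Its log2 fold changes of 0.37 (SE 0.16, edgeR adjusted p = 0.129) and 0.13 (SE 0.13, edgeR adjusted p = 0.492) did not pass and turned to −0.41 and −0.87 on the log2(TPM + 1) scale. *H3f3a*, which encodes the same protein, measured 139, 145 and 139 CPM in control low-glucose and 158, 191, 173 and 167 CPM in control high-glucose samples (log2 fold change 0.29, SE 0.13, edgeR adjusted p = 0.152). With *Pcbp2* deleted, the difference was 0.44 (SE 0.11, edgeR adjusted p = 0.00474), past the p threshold but under 1.5-fold, and both values changed sign on the TPM scale, to −0.59 and −0.63. *H3f3a* and its antisense gene overlap on chromosome 1 from 180641296 to 180642178. Reads from that stretch cannot be assigned to either unless the library kept strand, which the sources used here do not state. *H3f3aos* had log2 fold changes of −1.19 (edgeR adjusted p = 0.0791) and −0.50.

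*H2az1*, encoding H2A.Z, measured 415, 479 and 344 CPM in control low-glucose samples and 313, 281, 280 and 309 CPM in control high-glucose samples. The groups did not overlap, and the log2 fold change of −0.48 (SE 0.15, edgeR adjusted p = 0.0373) passed the p threshold at less than 1.5-fold. Among *Pcbp2* βKO samples it measured 435, 407, 368, 400 and 331 CPM in low and 438, 342, 454, 332 and 332 CPM in high glucose, a log2 fold change of −0.03 (SE 0.13). The interaction for *H2az1* was 0.45 (SE 0.20) and did not pass (edgeR adjusted p = 1). *H2az2* had 0.22 in control and 0.03 in *Pcbp2* βKO cells, turning to −0.66 and −0.97 on the log2(TPM + 1) scale. *H2ax*, whose product is phosphorylated at DNA breaks, had −0.11 and −0.22 under TMM, with 27.5 CPM in control high-glucose sample 1 against 12.0, 12.1 and 13.1 CPM in the others. The linker gene *H1f0*, known for high levels in resting cells, measured 237, 235 and 159 CPM in control low-glucose and 339, 332, 277 and 190 CPM in control high-glucose samples, which overlapped, with log2 fold changes of 0.44 (SE 0.19, edgeR adjusted p = 0.138) and 0.12 (SE 0.16, edgeR adjusted p = 0.619) that turned to −0.36 and −0.88 on the log2(TPM + 1) scale. *H1f10* was near the limit of detection at a mean of 0.0751 CPM, and *H4f16* had 1.13 and 0.73 without passing, the latter turning to −0.01 on that scale.

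**Figure D2:**
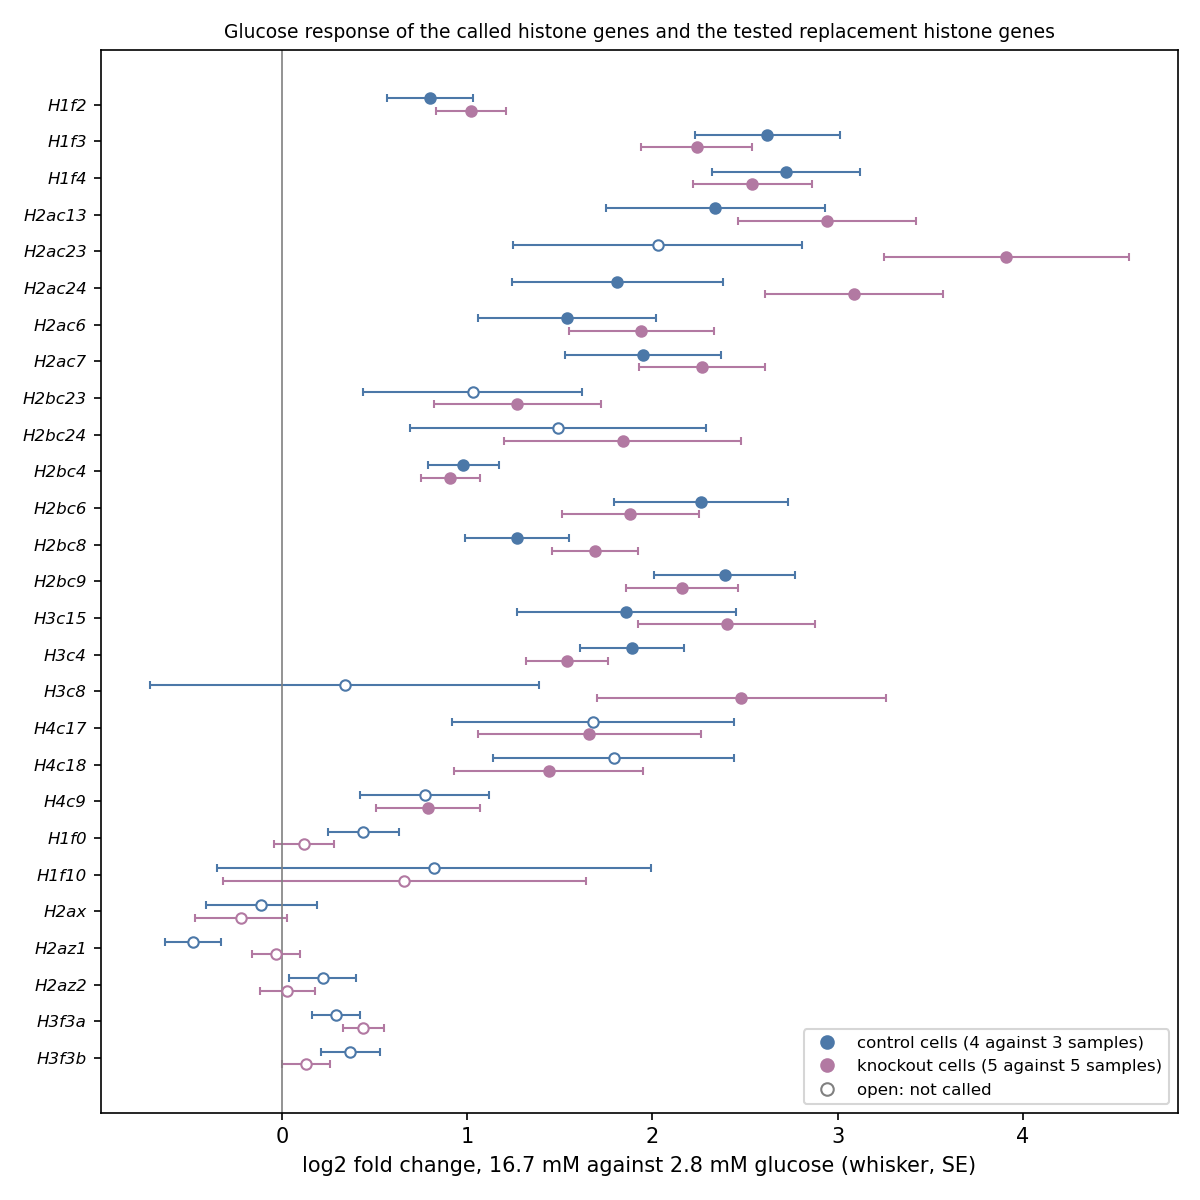
Log2 fold change of high against low glucose with its SE for the 20 called histone genes and the 7 tested replacement genes, in control cells (4 against 3 samples) and *Pcbp2* βKO cells (5 against 5 samples); open circles did not pass. The called genes lay to the right of 0 in both genotypes and none of the replacement genes was called under TMM scaling, while on the TPM scale the values of *H1f2*, *H2bc4* and *H4c9* in *Pcbp2* βKO cells, of *H1f2*, *H3c8* and *H4c9* in control cells and of the positive replacement genes fell below 0.

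The replication-dependent core and linker genes together reached 366 ± 67.9 CPM (SD, n = 3) in control low-glucose samples and 739 ± 159 CPM (n = 4) in control high-glucose samples. In *Pcbp2* βKO cells they reached 549 ± 130 CPM (n = 5) in low and 1018 ± 254 CPM (n = 5) in high glucose. By sample, the control values were 443, 316 and 339 CPM in low and 934, 774, 692 and 555 CPM in high glucose, with no overlap. The *Pcbp2* βKO values were 528, 386, 522, 561 and 749 CPM in low and 1017, 1007, 865, 768 and 1433 CPM in high glucose, sample 5 being highest at both levels. The H2B sum rose from 115 ± 15.9 to 238 ± 37.7 CPM in control and from 173 ± 24.2 to 341 ± 83.9 CPM in *Pcbp2* βKO samples, while the H4 sum had an SD of 61.3 CPM around a mean of 62.8 CPM in *Pcbp2* βKO low-glucose samples because of sample 5. Replacement core genes summed to 965 ± 84.1, 987 ± 56.2, 1012 ± 107 and 1090 ± 102 CPM in the same order of groups. As TPM the replication-dependent sum went from 451 to 501 in control and from 908 to 759 in *Pcbp2* βKO samples on average, so that the direction in *Pcbp2* βKO cells depended on the unit. By sample the control TPM sums were 552, 371 and 430 in low and 548, 501, 478 and 477 in high glucose. These overlapped, so the separation of control samples depended on the unit as well. The *Pcbp2* βKO TPM sums also overlapped between glucose levels. No test was run on sums. As a share of all histone TPM, replication-dependent genes held 31.9 ± 4.68% and 47.8 ± 4.97% in control low and high glucose, and 44.7 ± 9.39% and 56.0 ± 6.30% in *Pcbp2* βKO low and high glucose. No scaling factor can alter this share, but it depends on how shared reads were divided. It includes *H2ac18*, which has no 31-base stretch of its own. In low glucose *H2ac18* stood at 211, 136 and 121 TPM in control and at 324, 246, 421, 479 and 532 TPM in *Pcbp2* βKO samples.

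**Figure D3:**
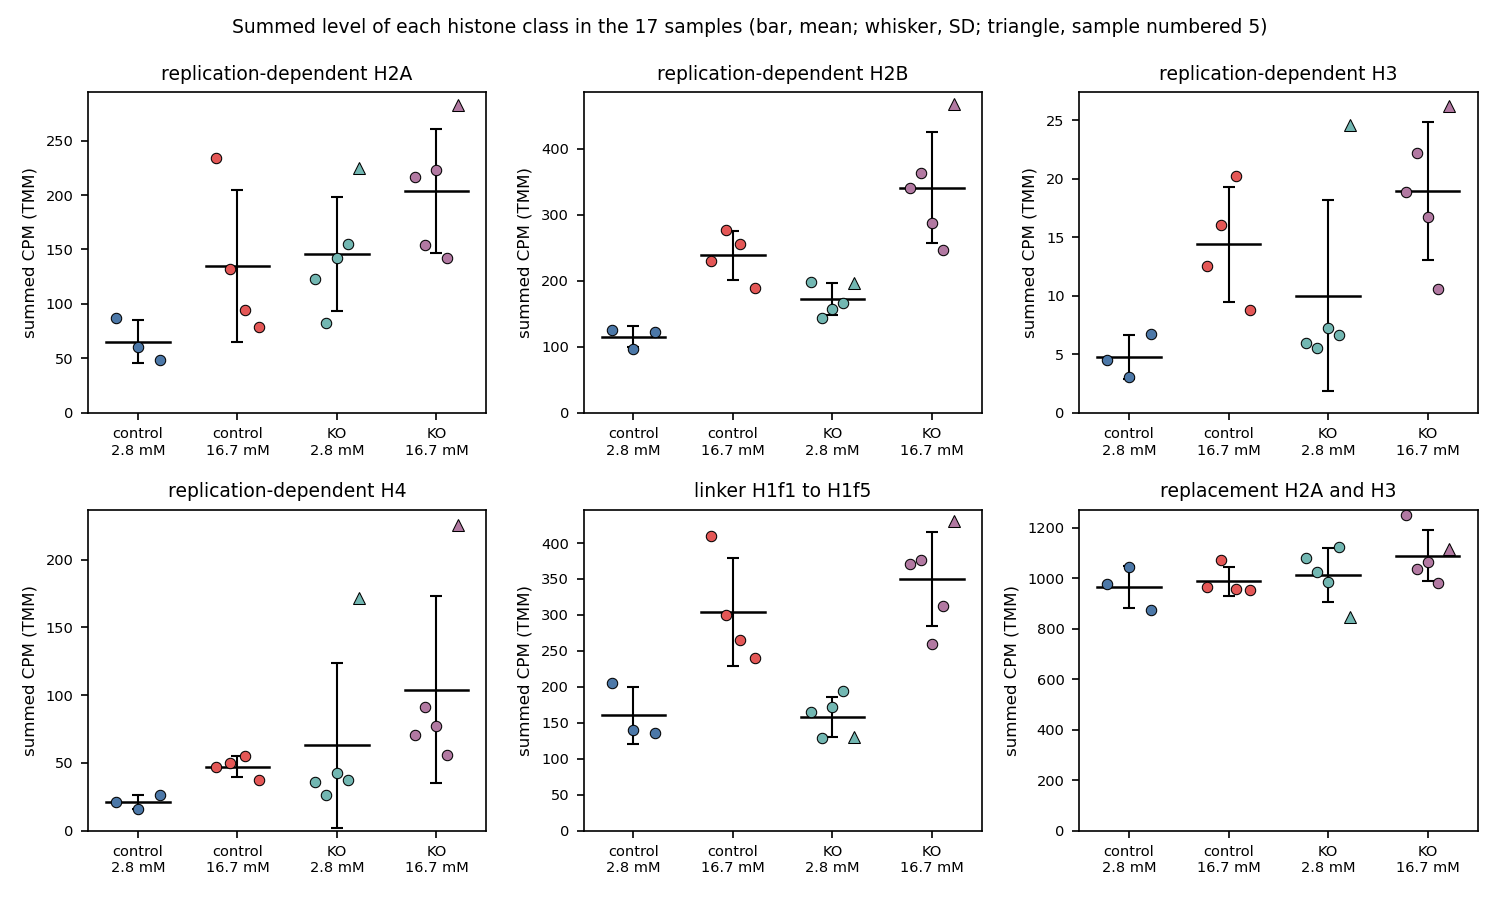
Summed TMM-scaled CPM (y axis) of 6 histone classes in each of the 17 samples by group (x axis; bar, mean; whisker, SD; triangles, samples numbered 5). The H2B and linker sums were higher in high glucose in each genotype and the replacement sum was level under TMM. As summed TPM the H2B and linker sums overlapped between glucose levels in each genotype, and the replacement sum was lower in high glucose. The H2A, H2B, H3 and H4 sums of *Pcbp2* βKO cells were lower on average as TPM as well.

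These directions are relative to the other genes, and they depended on the scale. Insulin mRNA took up a large and changing part of each library, and its part in that dependence was not tested. *Ins2* alone held 32.3% of TPM in control low-glucose, 54.2% in control high-glucose, 23.9% in *Pcbp2* βKO low-glucose and 57.1% in *Pcbp2* βKO high-glucose samples. Scaling by total counts alone moved the median of all genes to −0.35 in the control and −0.47 in the *Pcbp2* βKO glucose response, and the members' median, at 0.65 and 0.44, lay above it, with 8 members called higher and 2 lower in control cells and 13 higher and 2 lower in *Pcbp2* βKO cells. On the log2(TPM + 1) scale the median of all genes moved to −0.24 and −0.33 and that of the members to 0.04 and 0.03, and the calls split into 3 higher and 5 lower in control cells and 8 higher and 9 lower in *Pcbp2* βKO cells. With a pseudocount of 0.1 TPM the medians of all genes were −0.56 and −0.71, those of the members 0.17 and 0.11, and the calls 7 higher and 5 lower, and 13 higher and 12 lower. On the log2(TPM + 1) scale the 3 called higher in control cells were *H1f3*, *H1f4* and *H2bc6*, and the 5 called lower were *H2ax*, *H2az1*, *H2az2*, *H3f3a* and *H3f3aos*. In *Pcbp2* βKO cells the 9 called lower on that scale were the replacement genes *H1f0*, *H2ax*, *H2az1*, *H2az2*, *H3f3a* and *H3f3b* and the replication-dependent genes *H2ac18*, *H4c1* and *H4c12*, and *H4c1* was also called lower there with total counts alone. Upper-quartile factors moved the median of all genes to 0.12 in control cells. With each of these scales the members' median lay above that of all genes in both glucose responses.

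Between genotypes few members passed. In low glucose 1 of 59 tested members, *H3c4*, was called higher in *Pcbp2* βKO cells and 0 lower, against 0.255% of all genes called higher and 1.78% called lower. Its CPM values, given above, did not overlap between genotypes, and the log2 fold change was 1.10 (SE 0.26, edgeR adjusted p = 0.0326). The call was lost without control low-glucose sample 2 or 3 and without *Pcbp2* βKO low-glucose sample 3, 4 or 5, and also without a filter on low counts, on the log2(TPM + 1) scale and with only the 2 groups fitted, with an adjusted p of up to 0.188 over all settings. At an unadjusted p under 0.05 there were 25 members, against 2936 of all genes tested (15 without control low-glucose sample 2, 16 without control low-glucose sample 1, and 11 without *Pcbp2* βKO low-glucose sample 5 or both samples numbered 5), and DESeq2 called 7: *H2ac18*, *H2bc21*, *H2bc23*, *H3c4*, *H4c1*, *H4c11* and *H4c18*. With the replicate number as a block 6 were called. The count was 0 without control low-glucose sample 2 or 3 or *Pcbp2* βKO low-glucose sample 4 or 5, 2 without control high-glucose sample 4, 3 without *Pcbp2* βKO low-glucose sample 2 and 5 without *Pcbp2* βKO high-glucose sample 5. The median over tested members was 0.88, against 0.03 over all genes, and 0.64 against −0.01 over those with a mean of at least 1 CPM; without both samples numbered 5 the former was 0.40. With total counts alone the median of all genes was 0.15 and that of the members 0.97, and with a pseudocount of 0.1 TPM they were 0.13 and 0.80.

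In high glucose 1 of 59 tested members, *H2bc23*, was called higher in *Pcbp2* βKO cells and 0 lower, against 0.29% and 1.42% of all genes. *H2bc23* stood at 0.409, 0.606, 0.722 and 0.205 CPM in control and at 2.87, 3.13, 1.82, 1.59 and 3.91 CPM in *Pcbp2* βKO samples, which did not overlap. The log2 fold change was 2.45 (SE 0.52, edgeR adjusted p = 0.0162), and the call was lost without control high-glucose sample 1. It was also lost on the log2(TPM + 1) scale and with 3 samples left out, the value falling to as little as 0.58. With protein-coding transcripts alone 0 members were called. In low glucose it stood at 0.243, 0.180 and 0.284 CPM in control and at 0.637, 0.657, 0.530, 0.798 and 2.89 CPM in *Pcbp2* βKO samples, also without overlap, with a log2 fold change of 2.22 (SE 0.58, edgeR adjusted p = 0.0562). Since 98.3% of its 31-base stretches also occur in *H2bc24*, *H2bc23* cannot be separated from that gene with confidence. At an unadjusted p under 0.05 there were 21 members, against 2763 of all genes tested (13 without *Pcbp2* βKO high-glucose sample 5), and DESeq2 called *H2bc23*, *H3c4*, *H4c9*, *H4c11* and *H4c18*. With the replicate number as a block 5 were called. The median was 0.82, against 0.01 over all genes (0.53 without *Pcbp2* βKO high-glucose sample 5), and 0.58 against 0.00 over those with a mean of at least 1 CPM.

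A few H4 genes differed between genotypes once both samples numbered 5 were left out. In low glucose *H4c11* stood at 0.799, 0.735 and 0.777 CPM in control and at 2.07, 1.76, 2.64, 2.06 and 8.44 CPM in *Pcbp2* βKO samples. In high glucose it stood at 1.88, 2.26, 2.12 and 2.07 CPM in control and at 5.00, 6.10, 4.53, 3.44 and 19.2 CPM in *Pcbp2* βKO samples. The genotypes were separate at both glucose levels with or without sample 5. With all samples the log2 fold changes were 2.14 (SE 0.59, edgeR adjusted p = 0.0698) and 1.88 (SE 0.51, edgeR adjusted p = 0.0780), and without both samples numbered 5 they were 1.47 (edgeR adjusted p = 0.00239) and 1.19 (edgeR adjusted p = 0.00622). *H4c18* gave 1.38 (edgeR adjusted p = 0.0285) and 1.23 (edgeR adjusted p = 0.0303) without them, and *H4c8* gave 1.38 (edgeR adjusted p = 0.00530) in low glucose. In that comparison 4 members passed in low glucose (*H3c4*, *H4c8*, *H4c11* and *H4c18*) and 3 in high glucose (*H2bc23*, *H4c11* and *H4c18*). These genes were named after their values had been seen, as were the samples left out.

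Whether glucose acted differently in the genotypes was tested as an interaction. Of the 59 tested members 0 were called by edgeR in either direction, against 0.00439% of all genes called higher and 0% called lower. At an unadjusted p under 0.05 there were 3 members (*H2az1*, *H2bc18* and *H4c1*), against 1042 of all genes, a count that ran from 0 without control high-glucose sample 3 to 6 without *Pcbp2* βKO high-glucose sample 5, and DESeq2 and each other setting that could fit an interaction also called 0. The members' median was −0.23, against −0.01 over all genes (−0.02 without control low-glucose sample 2 and 0.30 without *Pcbp2* βKO low-glucose sample 5), and 0.06 against 0.00 without both samples numbered 5. The 7 genes called in *Pcbp2* βKO cells alone are thus not shown to respond differently from control cells.

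Companion genes were examined beside the histones. Of 17 genes for histone mRNA 3′ end formation and supply, all tested, 1 was called higher in high glucose in control cells and 2 in *Pcbp2* βKO cells, and 1 was called lower in each. Over all genes tested 7.15% and 13.4% were called higher and 6.69% and 10.4% lower, shares that apply to the lists below as well. *Srrt*, encoding the cap-associated protein ARS2, rose by 1.54 (edgeR adjusted p = 0.00876) and 1.91 (edgeR adjusted p = 0.000130), and *Lsm10*, a subunit of the U7 particle that cuts histone pre-mRNA, fell by 0.77 (edgeR adjusted p = 0.0203) and 0.79 (edgeR adjusted p = 0.00270). *Zfp473*, a zinc finger protein of the same machinery, rose by 1.11 in *Pcbp2* βKO cells (edgeR adjusted p = 0.0116). *Slbp*, which binds the stem-loop, measured 33.0, 31.7 and 34.1 CPM in control low-glucose and 35.9, 41.6, 49.4 and 38.1 CPM in control high-glucose samples. Its log2 fold changes were 0.33 and 0.36 (edgeR adjusted p = 0.174 and 0.0430), neither over 1.5-fold and turning to −0.42 and −0.64 on the log2(TPM + 1) scale, and those of *Npat*, a coactivator of histone gene transcription, were −0.22 and −0.19. The list's medians were −0.11 and 0.07, and 0 of the 17 differed between genotypes at the threshold by edgeR.

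Of 16 histone chaperone genes, all tested, 1 rose (*Ubn1*, 0.64, edgeR adjusted p = 0.0187, but −0.22 on the log2(TPM + 1) scale) and 1 fell (*Ssrp1*, −1.0, edgeR adjusted p = 0.000477) with glucose in control cells. In *Pcbp2* βKO cells *Asf1b*, a chaperone of newly made H3 and H4, rose by 1.90 (edgeR adjusted p = 0.0164), and *Ssrp1* changed by −0.78 (edgeR adjusted p = 8.88e-05). *Supt16*, which forms the FACT complex with SSRP1, was the 1 chaperone gene called between genotypes. It measured 49.0, 43.7 and 35.6 CPM in control and 92.8, 67.8, 94.3, 88.7 and 98.9 CPM in *Pcbp2* βKO low-glucose samples, and 33.0, 32.3, 24.7 and 42.6 CPM in control and 64.7, 48.4, 78.4, 77.2 and 75.4 CPM in *Pcbp2* βKO high-glucose samples. The genotypes did not overlap, with log2 fold changes of 1.05 at both glucose levels (edgeR adjusted p = 0.00429 and 0.00212). Among 6 variant histone genes outside the symbol rule, *Macroh2a2* rose by 0.62 and 0.88 with glucose (edgeR adjusted p = 0.0152 and 0.000105; −0.16 and −0.14 on the log2(TPM + 1) scale) and *Cenpa*, the centromeric H3, by 3.60 in *Pcbp2* βKO cells (edgeR adjusted p = 0.00415).

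Of 20 genes of S phase and mitosis, all tested, 2 were called higher with glucose in control cells (*Mcm5* and *Rrm2*) and 15 in *Pcbp2* βKO cells, against 7.15% and 13.4% of all genes, with medians of 1.09 and 2.05, and 0 were called between genotypes or in the interaction by edgeR. Of the 15, *Mcm6* and *E2f1* turned to −0.18 and −0.29 on the log2(TPM + 1) scale, and *Ccne1* to −0.07 with a pseudocount of 0.1 TPM. The summed level of the 20 genes was 235, 244 and 214 CPM in control low-glucose and 411, 298, 230 and 222 CPM in control high-glucose samples. With *Pcbp2* deleted, it was 242, 263, 220, 257 and 257 CPM in low and 770, 570, 829, 302 and 187 CPM in high glucose, *Pcna* being the most abundant gene. *Mki67*, a marker of cycling cells, measured 0.914, 0.503 and 0.328 CPM in control low-glucose samples and 12.2, 6.15, 2.22 and 1.47 CPM in control high-glucose samples. Among *Pcbp2* βKO samples it measured 1.24, 0.551, 0.636, 1.25 and 0.360 CPM in low and 32.9, 23.9, 54.2, 8.48 and 0.218 CPM in high glucose, and its log2 fold changes were 3.24 (edgeR adjusted p = 0.0523) and 4.90 (edgeR adjusted p = 0.000672). *Top2a*, needed to separate replicated chromosomes, had 2.61 (edgeR adjusted p = 0.0717) and 4.12 (edgeR adjusted p = 0.000894). *Pcbp2* βKO high-glucose sample 5 had the lowest *Mki67* of the 17 samples, while among the 5 samples of its group it ranked 1 for *H2bc4*, *H2bc6* and *H4c3*, 2 for *H1f4*, 3 for *H1f3* and 4 for *H2ac24* and *H2bc8*. In bulk RNA, fewer cells of a kind and less RNA per cell cannot be told apart, and the part of cycling cells in the histone result was not tested.

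Markers of islet cell types were read in the same samples. All 10 β cell markers were tested, with *Ins2* the most abundant; their sum was 122718, 118678 and 118525 CPM in control low-glucose and 523194, 449129, 367177 and 270661 CPM in control high-glucose samples. It was 93132, 71871, 68984, 67234 and 97418 CPM in *Pcbp2* βKO low-glucose and 473108, 404641, 460905, 358027 and 361355 CPM in *Pcbp2* βKO high-glucose samples. With glucose 6 of them were called higher in control and 8 in *Pcbp2* βKO cells, and *Ins1* was lower in *Pcbp2* βKO cells in low glucose (−3.04, edgeR adjusted p = 2.32e-06), with an interaction of 2.78 (edgeR adjusted p = 0.00902). The 6 macrophage and leukocyte markers, led by *Lyz2*, summed to 69.4, 18.9 and 32.9 CPM in control low-glucose and 6.32, 2.58, 10.2 and 15.6 CPM in control high-glucose samples. They summed to 136, 27.7, 97.0, 101 and 158 CPM in *Pcbp2* βKO low-glucose and 1.73, 2.01, 3.25, 14.0 and 9.92 CPM in *Pcbp2* βKO high-glucose samples, 1 of 6 (*Csf1r*) being called lower with glucose in control and 6 of 6 in *Pcbp2* βKO cells. The leukocyte sum was thus lower and the replication-dependent histone sum higher in high glucose, whereas both were higher on average in *Pcbp2* βKO than in control samples in low glucose. The leukocyte sum was highest in *Pcbp2* βKO low-glucose sample 5, where H4 and other histone genes stood apart. The part of the leukocyte sum in the results was not tested.

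Other endocrine markers were present at lower levels. The 3 α cell markers read here, led by *Gcg*, summed to between 530 and 9403 CPM, *Gcg* being called lower and *Ttr* higher with glucose in *Pcbp2* βKO cells and *Ttr* higher in control cells. The 2 δ cell markers, led by *Sst*, summed to between 73.1 and 945 CPM, and *Hhex* was called lower with glucose in *Pcbp2* βKO cells, as was the PP cell marker *Ppy*, which ranged from 224 to 5112 CPM. *Pcbp2* βKO low-glucose sample 5, where H4 and other histone genes stood apart, held the highest δ sum and the highest *Ppy*. In low glucose *Ppy* stood at 797, 835 and 825 CPM in control and at 992, 1619, 1534, 2708 and 5112 CPM in *Pcbp2* βKO samples, and the δ sum at 232, 78.2 and 276 CPM in control and at 316, 112, 623, 902 and 945 CPM in *Pcbp2* βKO samples, of which *Ppy* did not overlap and the δ sum did. The α sum there was 678, 2601 and 1411 CPM in control and 1549, 6595, 2066, 9403 and 5412 CPM in *Pcbp2* βKO samples, which overlapped. Of 8 acinar markers 6 were below 0.1 CPM on average (*Cpa1*, *Cel*, *Pnlip*, *Ctrb1*, *Prss2* and *Amy2a1*) and the sum never passed 4.96 CPM; the endothelial sum stayed between 2.85 and 6.68 CPM with *Cdh5* and *Plvap* below 0.1 CPM, and the stellate sum between 0.324 and 5.19 CPM with *Col1a1* below 0.1 CPM. *Esam* was the 1 endothelial marker called higher with glucose, in *Pcbp2* βKO cells, turning to −0.18 on the log2(TPM + 1) scale. Ductal markers summed to between 384 and 1184 CPM, with *Krt7* the most abundant, and *Cftr* was called lower in *Pcbp2* βKO cells at both glucose levels. Their part in the histone results was not tested.

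The histone genes lie together in the genome (GRCm39, GENCODE vM39). Of the 79 members 55 are on chromosome 13 and 11 on chromosome 3. One cluster on chromosome 13 holds 24 members between 21899933 and 22227846, another holds 31 between 23715220 and 24118834, and a cluster on chromosome 3 holds 10 between 96127181 and 96177448. The files' transcripts matched this annotation release by identifier and length in 104782 of 142376 cases (73.6%), and for the histone transcripts in 95 of 106.

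The stem-loop at which replication-dependent mRNA ends was looked for within 150 bases past the stop codon of 76 members with an annotated coding end. It was found in 61 of 63 replication-dependent genes (not in *H2ac22* or *H2bc21*) and also in *H1f6*, *H2ax*, *H3f4* and *H4f16*, starting 21 to 58 bases past the stop codon (median 30). It was found in none of *H1f0*, *H2az1*, *H2az2*, *H3f3a* and *H3f3b*. One form, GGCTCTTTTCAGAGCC, made up 40 of the 65, mostly in H1, H2A, H2B and H3 genes, and H4 genes had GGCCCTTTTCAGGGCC in 8 cases including *H4f16*. The sites below, from GRCm39, show the stem-loop in capitals for 5 genes whose levels were described above, on chromosome 13 except that of *H2ax* on chromosome 9. Their positions are chr13:23805765-23805780 on the minus strand for *H1f4*, chr13:23756017-23756032 on the plus strand for *H2bc8*, chr13:23760418-23760433 on the plus strand for *H3c4*, chr13:23882072-23882087 on the minus strand for *H4c3* and chr9:44246537-44246552 on the plus strand for *H2ax*, each in the 3′ UTR of its gene.
H1f4: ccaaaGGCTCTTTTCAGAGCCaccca
H2bc8: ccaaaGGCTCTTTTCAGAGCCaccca
H3c4: ccaaaGGCTCTTTTCAGAGCCacccc
H4c3: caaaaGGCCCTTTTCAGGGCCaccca
H2ax: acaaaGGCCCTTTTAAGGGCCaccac

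Members differed in how far their annotated transcripts run past this stem-loop, a feature the rule did not use. Only models with a stem-loop within 150 bases past their own stop codon were measured. In 22 replication-dependent genes such a model ended over 100 genomic bases past it, and in 39 all such models ended before or within 100 bases of it. *H2bc22*, counted among the 39, also has a spliced model with no stem-loop found, which held 59.8% of its counts and was not measured. That gene ends at 21973391, while its stem-loop ends at 21972108. Of the 22 with an extended model all were tested, 20 had a mean of at least 1 CPM, and 10 were called with glucose in control and 13 in *Pcbp2* βKO cells. In 3 of the 22 (*H2bc4*, *H2bc23* and *H2bc24*) the model splices the stem-loop out, and of the 19 whose model holds it 9 and 10 were called. Of the other 39, 27 were tested, 5 had a mean of at least 1 CPM, and 3 and 7 were called. The medians of their mean levels were 4.15 and 0.117 CPM. Among called genes the extension reached 4884 bases in *H1f3*, 2010 in *H2ac6*, 1861 in the *H2bc6* model whose length in the files matched the annotation, 1214 in *H2bc9*, 1153 in *H1f4* and 840 in *H1f2*. It was 3 in *H2ac24* and 42 in *H2ac7*, which were called all the same. Genes called in neither genotype had long extensions too, such as 1257 bases in *H4c14* and 770 in *H4c4*. The CPM of a long model counts more reads per molecule than that of a short one, and these counts are not adjusted for length. Models that span several genes of a cluster exist as well, and 4 were read after their values had been seen. *Gm20634*, with a mean of 4.86 CPM, rose in *Pcbp2* βKO cells (log2 fold change 1.97, SE 0.45, edgeR adjusted p = 0.00268) and did not pass in control cells (1.58, SE 0.55, edgeR adjusted p = 0.0568, overlapping groups). The other 3 did not pass in either genotype, with values of −0.69 for *Gm20633*, 0.66 for *Gm20632* and 0.48 for *Gm20628* in *Pcbp2* βKO cells.

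How well the counts of 1 gene can be kept from another's was measured by the share of 31-base stretches of its transcripts found in no other gene. The median over the 79 members was 44.8%, 16 members were under 10%, and 5 (*H2ac18*, *H2ac19*, *H2bc18*, *H3c13* and *H3c14*) had none. *H1f3* reached 96.3%, *H1f2* 88.6%, *H2bc6* 83.2%, *H2ac6* 80.1%, *H4c3* 77.8%, *H3c4* 72.4%, *H2bc9* 69.9%, *H1f4* 65.3% and *H2bc4* 61.3%. *H1f4* and *H2bc6* overlap on the same strand of chromosome 13, and 24.5% of the *H1f4* stretches also occur in *H2bc6*. Low values were found for *H2bc23* (1.7%), *H2ac23* (6.2%), *H2ac24* (6.6%), *H2ac13* (8.0%), *H4c17* (8.3%), *H2bc24* (10.5%) and *H4c18* (12.5%), whose levels are uncertain for that reason. Among replication-dependent genes with at least 50% of stretches of their own, 19 of 22 were tested and 8 were called with glucose in control and 9 in *Pcbp2* βKO cells. Among those under 50%, 31 of 42 were tested and 5 and 11 were called.

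Promoter sequences, 250 bases before to 50 bases after the gene start, were matched in RefSeq (GRCm38.p6) for 69 of the 79 members and 27025 genes in all. Each was searched for TATAAA, the spelling of the TATA box, on the strand of the gene alone, and for CCAAT on both strands. A TATAAA match at any position was counted, so it need not be a TATA box. Further searches, also on both strands, were for the octamer ATTTGCAT and for TTTNGCGC. Of 57 replication-dependent genes 29 held TATAAA on their own strand, against 9.8% of all genes, and 49 held CCAAT, against 41.1%. The octamer was found in 13 (2.0% of all genes) and TTTNGCGC in 13 (1.6%), all of them H2A or H2B genes in both cases. CCAAT was in all 17 *H2ac*, all 14 *H2bc*, all 10 *H3c* and all 5 linker promoters and in 3 of 11 *H4c* promoters, while TATAAA was in 8 of those 11. Of 11 replacement and germ cell genes 2 held TATAAA, 7 CCAAT, 1 the octamer and 0 TTTNGCGC. Among the 18 matched genes that were called with glucose in either genotype the counts were 9, 15, 3 and 4. The promoters of 4 of these genes, called in both genotypes, are printed with these matches to the 4 motifs in capitals. A match is a run of letters and says nothing on binding. These 4 do not stand for the 18, since each holds TATAAA and CCAAT, and *H2ac6* and *H2bc8* also hold the octamer. In *H3c4* the TATAAA matches lie nearer the far end of the printed stretch than the gene start. They lie at chr13:23622509-23622808 (minus strand), chr13:23683910-23684209 (minus strand), chr13:23571150-23571449 (plus strand) and chr13:23575513-23575812 (plus strand), in the order given, in RefSeq GRCm38.p6 coordinates.
H1f4: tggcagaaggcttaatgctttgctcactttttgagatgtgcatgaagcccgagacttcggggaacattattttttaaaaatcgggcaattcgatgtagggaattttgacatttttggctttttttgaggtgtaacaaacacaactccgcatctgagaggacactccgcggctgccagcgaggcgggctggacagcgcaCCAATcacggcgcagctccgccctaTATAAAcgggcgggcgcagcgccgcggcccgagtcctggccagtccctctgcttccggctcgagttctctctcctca
H2ac6: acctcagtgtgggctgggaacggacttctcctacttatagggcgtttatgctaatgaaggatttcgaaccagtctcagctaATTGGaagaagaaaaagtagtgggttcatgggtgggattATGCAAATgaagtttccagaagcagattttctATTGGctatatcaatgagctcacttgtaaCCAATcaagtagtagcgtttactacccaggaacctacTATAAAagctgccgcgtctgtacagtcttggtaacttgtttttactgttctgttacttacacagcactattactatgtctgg
H2bc8: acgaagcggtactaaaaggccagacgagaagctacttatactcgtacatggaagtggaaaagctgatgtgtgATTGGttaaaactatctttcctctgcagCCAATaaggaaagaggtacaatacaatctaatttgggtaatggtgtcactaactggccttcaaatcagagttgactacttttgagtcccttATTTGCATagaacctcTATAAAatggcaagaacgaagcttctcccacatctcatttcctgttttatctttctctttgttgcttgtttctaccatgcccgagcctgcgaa
H3c4: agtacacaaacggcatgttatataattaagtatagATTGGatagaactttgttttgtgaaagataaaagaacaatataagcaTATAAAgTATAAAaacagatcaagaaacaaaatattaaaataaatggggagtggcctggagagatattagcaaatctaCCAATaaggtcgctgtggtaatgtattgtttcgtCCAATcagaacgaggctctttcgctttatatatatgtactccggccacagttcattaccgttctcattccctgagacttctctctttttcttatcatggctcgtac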

How the data were processed

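The authors aligned paired reads of polyA RNA, prepared with an Illumina ultra low input kit, to the GRCm39 (mm39) mouse transcriptome with kallisto, which gave the estimated counts of each transcript as deposited. The TPM values were made by the same kallisto run and deposited by the authors beside those counts. The kallisto version and annotation release were not given in the sources used here. Estimated counts were summed per gene over the 142376 transcripts.

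Genes were filtered with filterByExpr, scaled by TMM (factors 0.752 to 1.288) and tested in edgeR 4.0.16 (R 4.3.3) with quasi-likelihood tests on 4 group means and Benjamini-Hochberg adjustment over 22784 genes. Alternatives used DESeq2 1.42.0, limma 3.58.1 on log2 TPM, other scaling factors and filters, protein-coding transcripts alone, fewer samples, and the replicate number as a block. The design of the authors had a batch factor whose levels are not given in the sources used here. Same-numbered control samples were correlated across glucose levels after group means were removed (r = 0.199, 0.123 and 0.258), and same-numbered *Pcbp2* βKO pairs ranged from 0.066 to 0.193. Differently numbered pairs across glucose levels reached at most 0.014 in control and 0.044 in *Pcbp2* βKO samples. The main fit did not use the replicate number. Between genotypes same-numbered samples gave r = 0.047, 0.244 and 0.12 in low glucose and 0.084, 0.184, 0.047 and 0.354 in high glucose.

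Genes named are those called in any comparison, the 3 of highest mean TPM in each class, every tested replacement gene, *Pcbp2*, and called companion genes with *Slbp*, *Npat*, *Mki67* and *Top2a*. The members and the lists (histone mRNA 3′ end formation and supply, histone chaperones, S phase and mitosis, other variant histones, and islet cell type markers) were chosen with earlier results of these data known. One planned marker is not reported here. The stem-loop, uniqueness and promoter searches used Python 3.11.15.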

Additional observations from a re-analysis of the deposited data

Results flagged for a closer look

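In 123 groups of values, each a histone gene or class sum in 1 group of samples, 25 held a sample that lay far from the rest. The control low-glucose samples were not examined in this way. If the groups were independent, chance alone would give about 1 in 20. They were not, because near-identical genes share reads and class sums include genes that were also examined singly. The count of 25 therefore cannot be judged against that rate. Of the 25, 19 were in the *Pcbp2* βKO samples numbered 5.

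In low glucose, *Pcbp2* βKO sample 5 lay far above the rest of its group for 12 genes, given in CPM with the next value in brackets: *H4c3* 69.3 (4.08), *H4c8* 34 (9.6), *H4c18* 11.6 (2.95), *H4c17* 3.71 (1.27), *H3c6* 16.6 (4.44), *H3c11* 1.92 (0.26), *H2bc6* 13.3 (5.12), *H2bc24* 6.81 (2.33), *H2bc23* 2.89 (0.798), *H2ac6* 4.99 (1.95), *H2ac8* 3.21 (1.24) and *H1f4* 7.18 (3.83). The summed H4 genes reached 172 CPM there (42.8) and the summed H3 genes 24.6 CPM (7.24). In high glucose, *Pcbp2* βKO sample 5 lay far above the rest for *H4c8* at 48.6 CPM (10.1), *H4c9* at 30.1 (14.8), *H4c18* at 27.8 (9.31), *H4c17* at 11.9 (2.87) and the summed H4 genes at 226 (91.3).

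The other 6 were spread over samples. *H2bc8* was lowest in *Pcbp2* βKO high-glucose sample 4 at 6.46 CPM, the next value being 11.6. Among control high-glucose samples, *H3c4* was highest in sample 3 at 2.67 CPM (2.24), *H2ax* in sample 1 at 27.5 (13.1), *H1f10* in sample 1 at 0.368 (0.0534) and the summed replacement core genes in sample 2 at 1071 (963). *H1f10* was highest in *Pcbp2* βKO low-glucose sample 1 at 0.156 CPM (0.0424).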

How the results depend on the processing

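The number of histone genes called depended on the settings in the glucose responses and between genotypes, and the cause was not tested. In low glucose the 1 gene called became 7 with DESeq2, 5 without a filter on low counts (77 members tested; *H3c4* was not among them), 2 with a mean of at least 1 CPM required, 2 on the log2(TPM + 0.1) scale and 0 when only the 2 groups compared were fitted. In high glucose the 1 gene called became 5 with DESeq2, 4 without a filter, 0 with protein-coding transcripts alone and 0 on the log2(TPM + 1) scale. Leaving out 3 samples together (control high-glucose sample 4 and *Pcbp2* βKO high-glucose samples 4 and 5) gave 7 in low and 0 in high glucose. With the replicate number as a block, the 13 genes called with glucose in control cells became 22, the 20 of *Pcbp2* βKO cells became 26, and the genotype counts became 6 in low and 5 in high glucose. On the log2(TPM + 1) scale the control glucose response had 8 calls, 3 higher and 5 lower. Without both *Pcbp2* βKO samples numbered 5, left out after seeing the data, there were 21 calls in the control glucose response, 4 between genotypes in low and 3 in high glucose. The interaction stayed at 0.

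Leaving out 1 sample at a time gave 8 to 18 genes in the control glucose response (8 without control low-glucose sample 2, 18 without *Pcbp2* βKO low-glucose sample 5) and 14 to 31 in that of *Pcbp2* βKO cells (14 without low-glucose sample 2, 31 without low-glucose sample 5). It gave 0 to 5 between genotypes in low glucose, 1 to 3 in high glucose and 0 for the interaction. The *Pcbp2* difference ran from −1.97 to −1.71 in low and from −2.51 to −2.31 in high glucose.

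For the called genes, 413 of 482 values under other settings still passed, 60 were weaker and 9 changed sign. With 1 sample left out 534 of 595 still passed and 61 were weaker. Of the sign changes, 8 were on the TPM scales: *H1f2* at −0.01 in both genotypes on both scales, *H2bc4* at −0.15 in *Pcbp2* βKO cells on both, and *H4c9* at −0.27 on the log2(TPM + 1) and −0.28 on the log2(TPM + 0.1) scale in *Pcbp2* βKO cells. *H2bc24* was at −0.34 in *Pcbp2* βKO cells with protein-coding transcripts alone. Depth was not varied here, and members under 1 CPM rest on fewer counts than the others.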
